A study of Homo sapiens with 32 samples.

Results

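N-R1 is line 1 of the K-562 cells made resistant to 0.1 µM nilotinib, and it is described here through the 111 genes in which it stood apart from every other resistant line. K-562 cells come from a chronic myeloid leukemia and grow through a fusion tyrosine kinase whose front part comes from the gene BCR. Imatinib and nilotinib both inhibit that kinase. The other 5 resistant lines were lowIM-R1 and lowIM-R2 (0.5 µM imatinib), highIM-R1 and highIM-R2 (2 µM imatinib) and N-R2 (line 2 at 0.1 µM nilotinib). Naive cells came as naive S and naive K, letters whose meaning the labels do not give. Each of these 8 sets was 1 RNA source run on 4 technical arrays, and resistance was reached by stepwise increase of the drug. The growth text names medium without either drug for all samples, and the presence of drug at harvest is not stated.

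A gene was counted where the mean of the 4 N-R1 arrays lay outside the range of the 5 other line means by at least 1 log2 unit, a 2-fold step in array signal. The distance from N-R1 to the nearest of the 5 lines is called the gap. Of 14884 measured genes, 111 (0.746%) met the rule: N-R1 was higher in 87 (0.585%) and lower in 24 (0.161%). The genes were chosen by these measured levels of the 6 resistant lines, so gaps are given as description, with no test. By the same rule each of the other lines stood apart in 123 genes (highIM-R1), 32 (highIM-R2), 32 (N-R2), 17 (lowIM-R1) and 8 (lowIM-R2). Gaps of the higher genes ran from 1.00 to 3.96 (median 1.47), and those of the lower genes reached -2.06 (median -1.16). For 86 of the 87 higher genes and all 24 lower genes, the 4 N-R1 arrays did not overlap the 20 arrays of the other lines. The rule on the means largely fixed this in advance, as the median SD of the N-R1 arrays was 0.16 in these genes. The 4 arrays are repeats of 1 source, so they measure technical spread, and each statement on N-R1 rests on 1 line.

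At the limit, the higher genes nearest to it on the inside were HS3ST3B1 and HERC5 (gaps of 1.00) and TIPARP (1.02), and on the outside POC1B-GALNT4 (0.99), ADAM19 (0.98) and NFIX (0.98). Among lower genes MYO3B (-1.002), ZNF438 (-1.02) and UACA (-1.02) lay just inside, and MED15 (-0.97), LINC01094 (-0.96) and HECTD2 (-0.93) just outside.

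Across genes, the 4 arrays within a set had correlations of 0.952 to 0.991. A technical axis was taken as the first principal component of the arrays after subtraction of their set means. Scores on it were highest in N-R1 (mean score 21.2, arrays from 15.6 to 30.8) against -2.13 to 12.3 in the other lines and -20.8 and -25.1 in naive S and K. With this axis taken out of all arrays, 109 genes met the rule, 81 higher and 28 lower, and 100 of the 111 were among them. With every array shifted to the same median, 101 were higher and 15 lower. A K-562 marker list had 9 measured genes. Of these, GATA1, the master factor of red cells, stood at 9.27 in N-R1 and 9.37 in naive cells. KLF1, a red cell factor, stood at 9.01 and 8.05. Over the 9 genes the median of N-R1 minus naive was 0.83, and that of the other 5 lines minus naive was 0.18. N-R1 was above all 5 lines in 3 of them (19.6% of all genes) and below in 2 (25.6%).

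As background, the fusion kinase of K-562 activates STAT5, a transcription factor that switches on survival genes, the PIM kinases, and feedback inhibitors such as CISH and the SOCS genes. K-562 cells resemble early cells of the red cell and platelet lineages. Of the 12 largest gaps above the other lines, 8 belonged to 1 run of genes on chromosome 4, which is described first.

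The 14 consecutive measured genes from HSD17B13 to FAM13A-AS1 on chromosome 4 were all higher in N-R1 than in the other 5 lines, with gaps from 1.00 to 3.96 (median 3.16). Chromosome 4 held 22 of the 111 genes among 612 measured (3.60%, against 0.746% of all genes). Over these 14 genes N-R1 lay 1.83 to 4.18 log2 units above the naive mean (median 3.47), while the median of N-R2 was -0.07 and those of the other 4 lines were between -0.15 and 0.17. In all 14 genes the lowest N-R1 array was above the highest of the 28 other arrays. For the arrays of the other 5 lines the rule largely fixed this in advance.

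**Figure D1:**
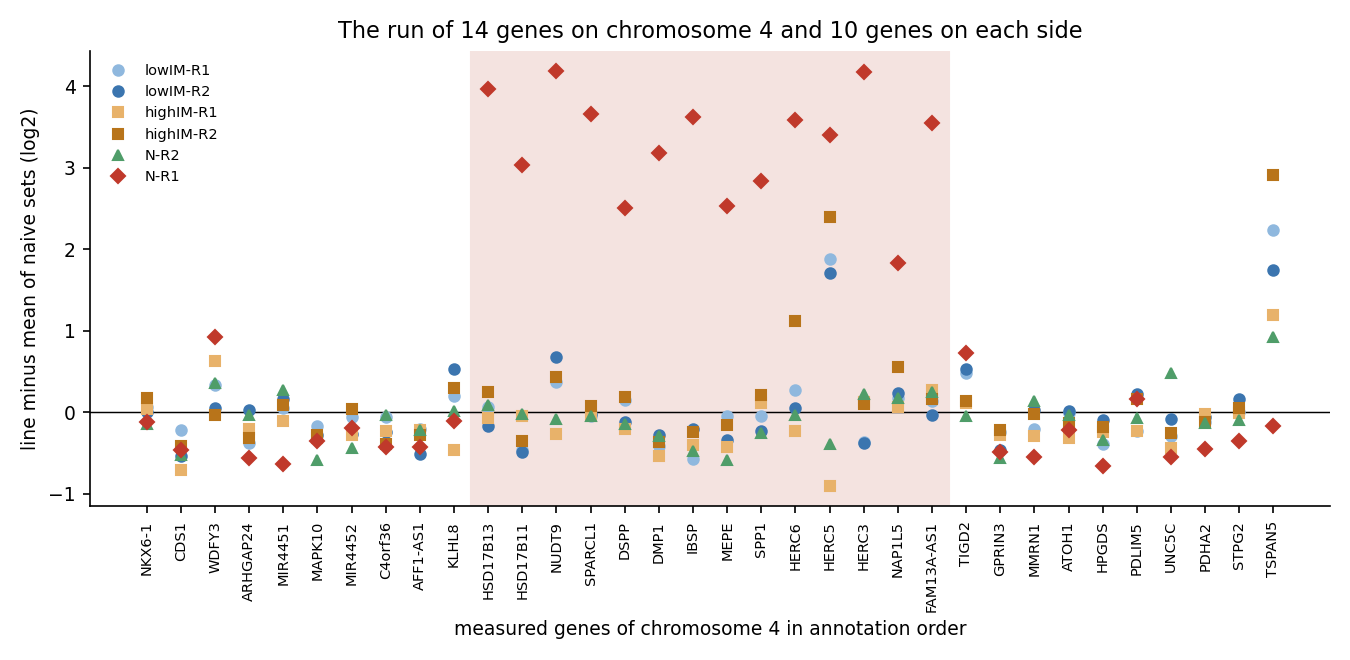
Each point is a line mean minus the mean of the 2 naive sets (log2, vertical axis) for 34 measured genes of chromosome 4 in annotation order (horizontal axis), with the 14 genes of the run shaded. N-R1 (red diamonds) is 1.83 to 4.18 above naive in the run and is within 1 log2 unit of naive at KLHL8 and TIGD2 on either side.

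The run began and ended within 1 gene. KLHL8, the measured gene before it, differed by -0.22 between N-R1 and the mean of the 5 lines, and TIGD2, the gene after it, by 0.48 with a gap of 0.19. Of the 10 measured genes on each side, 19 of 20 lay within 1 log2 unit of the other lines. The exception was TSPAN5, which was lower. Another 17 array features not assigned to exactly 1 gene symbol are numbered between the ends of the run: 16 were above all 5 lines and 14 by at least 1 log2 unit.

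HERC3, a ubiquitin ligase of the HERC family, read 11.30, 11.25, 11.42 and 11.37 on the 4 N-R1 arrays. The other line means were 6.79 (lowIM-R1), 6.78 (lowIM-R2), 7.28 (highIM-R1), 7.26 (highIM-R2) and 7.38 (N-R2), and the naive sets were at 7.08 and 7.23. The N-R1 arrays thus formed a tight group far above every other set, with a gap of 3.96 or 15.5-fold. HERC6 (9.53 in N-R1, gap 2.47) and HERC5 (8.97, gap 1.00), the ligase that attaches ISG15, lie beside it. HERC5 was also above naive (5.57) in lowIM-R1 (7.45), lowIM-R2 (7.28) and highIM-R2 (7.97), so its gap was small (0.90 with the technical axis taken out). NAP1L5, an imprinted gene that lies inside HERC3, was at 8.22 against 6.46 to 6.95 in the other lines, and reads of overlapping genes may be shared.

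Of the secreted phosphoproteins of bone and teeth in the run, IBSP (bone sialoprotein) read 8.79, 8.07, 8.62 and 9.10 on the N-R1 arrays. Its level was 4.45 to 4.82 in the other lines and 5.21 and 4.85 in the naive sets. SPP1 (osteopontin) read 8.51, 7.69, 8.33 and 9.005 against line means of 5.29 to 5.76, and naive 5.62 and 5.48. DMP1 (gap 3.47), MEPE (2.57) and DSPP (2.32) completed this family. Their arrays varied more than those of HERC3, with an SD of 0.43 to 0.55 for the 5 genes, yet none came near another set.

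The run also holds metabolic and matrix genes. HSD17B13 and HSD17B11, dehydrogenases of lipid droplets, had gaps of 3.71 and 3.05. HSD17B11 was the brightest of the run at 12.87 in N-R1, against 9.36 to 9.82 in the other lines. NUDT9, which cleaves ADP-ribose, had a gap of 3.50, SPARCL1, a matrix glycoprotein, 3.58, and the antisense RNA FAM13A-AS1 3.27. The run thus joins genes that were well above the array median in naive cells, such as HSD17B11 (9.84), with genes near 5, such as IBSP (5.03).

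The promoters of the run were mixed in the same way. RefSeq promoters (the 250 bases before a gene start, GRCh38.p14) were matched for 13 of the 14 genes, 15 promoters in all. TATAAA, searched on both strands, was found in 33.3% of them, against 10.7% of all 35116 promoters in the table and 8.14% of the promoters of measured genes. Their median number of CG dinucleotides was 4, against 11 in the table and 17 in promoters of measured genes. HERC3 and IBSP, the 2 genes with the largest gaps, are printed because HERC3 has the most CG dinucleotides of these promoters and IBSP the median number. Capitals mark CG and TATAAA on either strand (TTTATA on the printed strand). The window of HERC3 is chr4:88523593-88523842 and that of IBSP chr4:87799304-87799553, both on the plus strand.
HERC3: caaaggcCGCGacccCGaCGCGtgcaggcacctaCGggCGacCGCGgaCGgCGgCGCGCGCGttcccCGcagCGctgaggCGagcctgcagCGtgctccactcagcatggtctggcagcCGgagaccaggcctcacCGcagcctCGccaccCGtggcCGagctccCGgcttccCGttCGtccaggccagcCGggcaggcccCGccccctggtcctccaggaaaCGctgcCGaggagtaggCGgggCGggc
IBSP: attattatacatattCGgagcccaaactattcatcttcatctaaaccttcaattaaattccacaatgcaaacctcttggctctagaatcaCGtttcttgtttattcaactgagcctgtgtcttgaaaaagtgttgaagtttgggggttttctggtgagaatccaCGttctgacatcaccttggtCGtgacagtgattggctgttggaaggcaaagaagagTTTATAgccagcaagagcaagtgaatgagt
The HERC3 window holds 33 CG dinucleotides and no TATAAA, and the IBSP window holds 4 with TATAAA beginning 30 bases before the start. Over all 106 promoters matched to the 111 genes TATAAA stood in 11.3%. GCGTG, the core of the AHR binding site, stood in 35.8%, against 32.2% of all promoters and 39.4% of those of measured genes. TTCNNNGAA, the core of a STAT site, stood in 5.66%, against 6.57% and 5.85%. A match is a description of letters and not a binding site.

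The naive cells placed these genes in classes. The naive position of a gene is 0 where the naive mean equals the nearest other line and 1 where it equals N-R1. Under 0.25 (apart from naive) the naive mean lies near the nearest other line or beyond it, away from N-R1. Over 0.75 N-R1 is at the naive level, or naive lies beyond it. Only the nearest line enters, so other lines can also differ from naive. MYO3B, classed as apart, differed from naive by -1.15 in N-R1 and by 2.47 in N-R2. Of the 87 higher genes 66 were apart from naive, 16 between and 5 at or beyond naive. Of the 24 lower genes these numbers were 14, 4 and 6. N-R1 exceeded both naive sets by 1 log2 unit in 64 of the 87 higher genes, and was below both by that much in 12 of the 24 lower genes. The N-R1 values that chose the genes also enter the classes and these counts, which favours genes apart from naive. They are description only, and the same counts over all genes were not made.

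**Figure D2:**
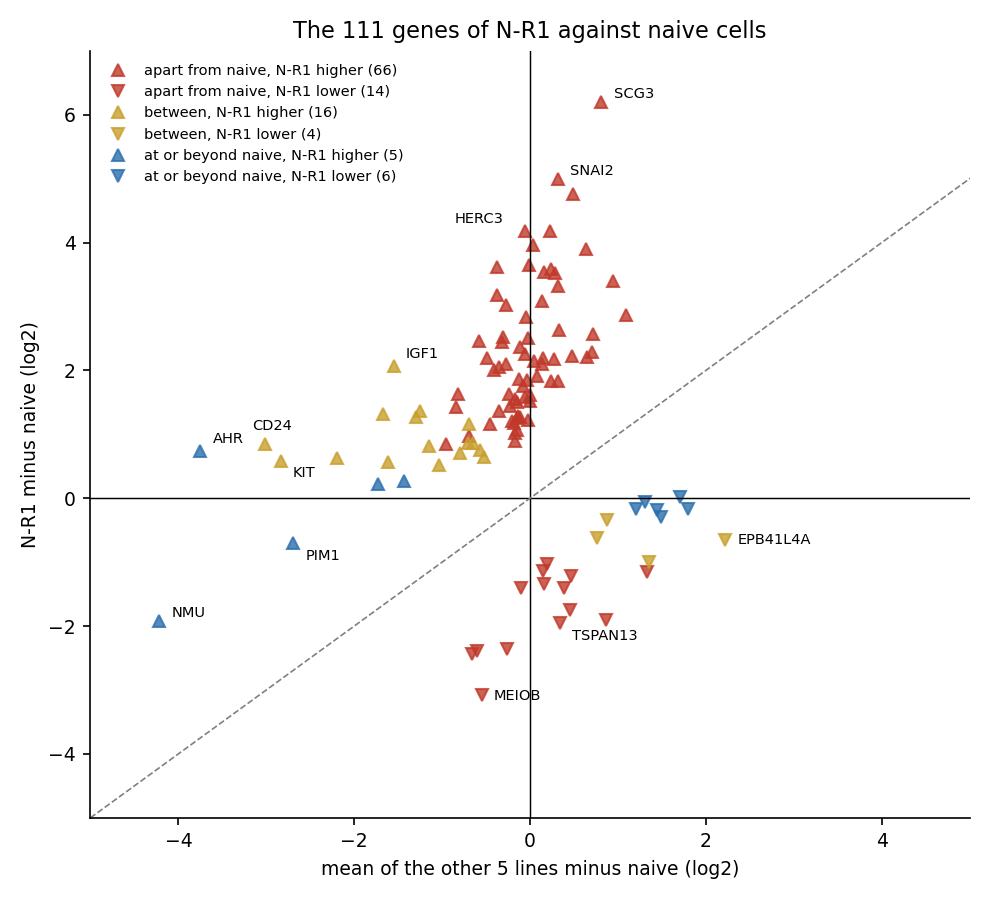
Each of the 111 genes is placed by the mean of the other 5 lines minus naive (log2, horizontal axis) and N-R1 minus naive (log2, vertical axis), with triangles pointing up where N-R1 is higher than the 5 lines and colour giving the naive class. Most higher genes stand along the vertical line at 0, where the other lines equal naive, while the 5 at or beyond naive lie to the left and the 6 such lower genes to the right near 0.

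In limma, with adjusted p under 0.05 by Benjamini-Hochberg, 588 of 14884 genes differed between N-R1 and naive cells, 477 higher (3.20%) and 111 lower (0.746%). Of the 87 higher genes 52 were called higher, and of the 24 lower genes 3 were called lower. Between the other 5 lines and naive cells 615 genes differed, 510 higher (3.43%) and 105 lower (0.705%), and this held 13 of the 87 as lower and 7 of the 24 as higher. Both contrasts share arrays with the rule, so these counts do not support the choice of the genes. N-R1 enters as 1 line assumed to vary like the others, and the calls rest on both naive sets: N-R1 against naive gave 18 calls without naive S and 16 without naive K, and the other 5 lines against naive gave 0 and 2.

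Without using a model, the 4 N-R1 arrays were clear of all 8 naive arrays in 76 of the 87 higher genes, where 26.9% of all genes had N-R1 above, and in 15 of the 24 lower genes, where 12% of all genes had N-R1 below. The 13 calls above naive in the chromosome 4 run left out HERC5 (3.40 ± 1.29, SE, adjusted p = 0.124 in limma). None of the 14 was called between the other 5 lines and naive.

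**Figure D3:**
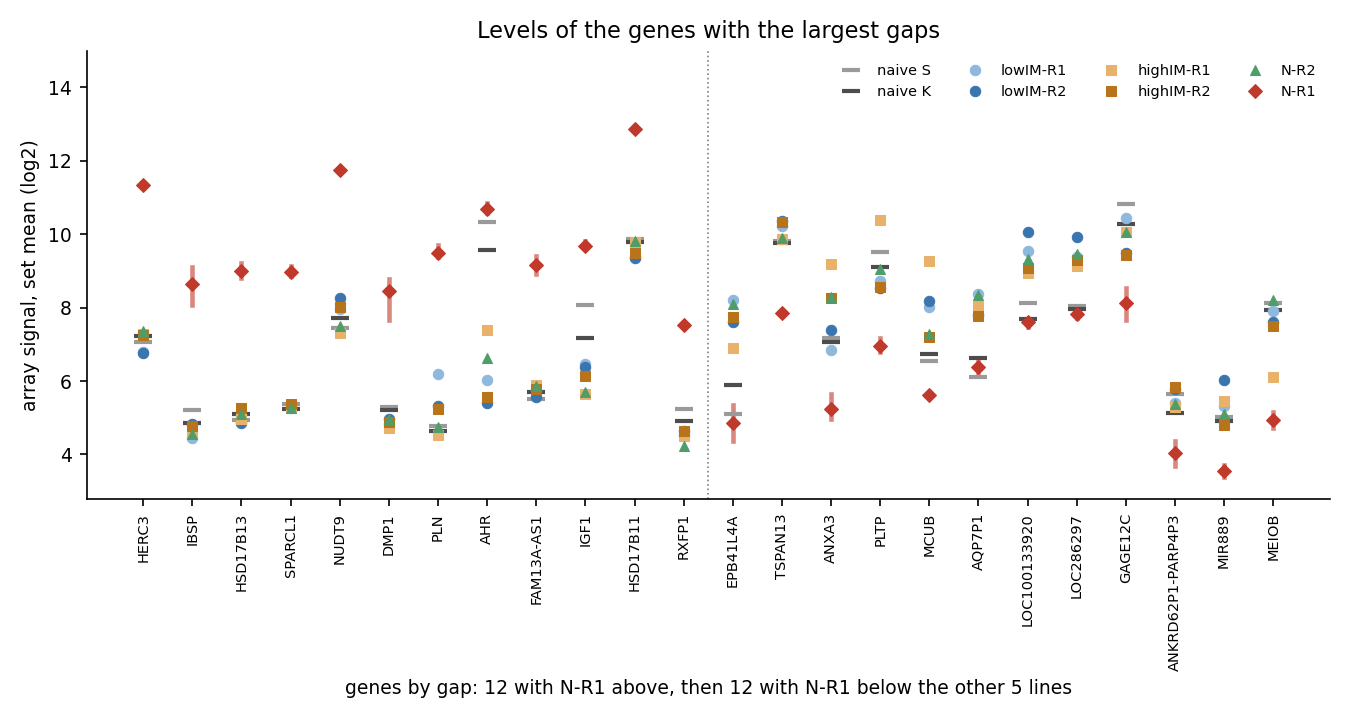
Set means of array signal (log2, vertical axis) are drawn for the 12 genes with the largest gaps above and the 12 with the largest gaps below the other 5 lines (horizontal axis), with red bars for the range of the 4 N-R1 arrays. AHR in N-R1 sits beside the naive sets at 10.69, whereas HERC3 and IBSP sit far above them.

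AHR, the aryl hydrocarbon receptor, a ligand-activated transcription factor that senses dioxins and tryptophan products, was near the naive level in N-R1 alone. It read 10.58, 10.87, 10.61 and 10.69 on the N-R1 arrays and had means of 10.34 and 9.57 in naive S and K. The other lines were at 6.03 (lowIM-R1), 5.41 (lowIM-R2), 7.40 (highIM-R1), 5.56 (highIM-R2) and 6.63 (N-R2). N-R1 lay 0.73 ± 0.76 (SE) above naive (adjusted p = 0.503 in limma) and the other 5 lines differed from naive by -3.75 ± 0.52 (adjusted p = 0.025). TIPARP, an ADP-ribosyltransferase induced by AHR, was at 9.12 in N-R1, 8.34 and 8.40 in the naive sets and 7.30 to 8.10 in the other lines, with its gap at 0.95 once the technical axis was taken out. The AHR partner ARNT was at 9.24, inside the 9.23 to 9.76 of the other lines. Among the 8 measured genes of the drug metabolism list, AHR and TIPARP were the 2 that met the rule, and 2 of 8 were above all 5 lines (19.6% of all genes) and 3 below (25.6%). The list median of N-R1 minus the mean of the 5 lines was -0.19.

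AHR is also the end of a second cluster on chromosome 7. Within the 10 measured genes from AGMO to AHR 4 met the rule, and they did not all go one way. MEOX2, a homeobox factor, was at 8.15 against 5.54 to 5.89, and AGMO, which cleaves ether lipids, at 7.64 against 5.48 to 6.48. TSPAN13, a tetraspanin, went the other way. It read 7.79, 7.89, 7.77 and 7.92 on the N-R1 arrays against 9.88 to 10.37 in the other lines and 9.83 and 9.77 in naive cells.

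Genes of survival and STAT5 signalling formed a further group. PIM1, a serine/threonine kinase, read 9.67, 9.95, 9.64 and 9.83 in N-R1, below the naive sets at 10.59 and 10.35 and above the other lines at 6.81 to 8.32. N-R2 was the lowest line for PIM1. BCL2, which blocks apoptosis, was at 7.41 against 5.25 to 5.82 in the other lines and 7.63 and 6.77 in naive cells. SOCS1, a feedback inhibitor of JAK kinases, read 9.06, 8.99, 8.94 and 8.92 in N-R1, above naive S (8.00) and naive K (7.22), and was at 6.001 to 6.88 in the other lines. It went past naive in N-R1 by 1.37 ± 0.40 (SE, adjusted p = 0.076 in limma), so that difference did not pass.

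Of 14 measured STAT5 targets 2 (PIM1 and SOCS1) met the rule and 9 were above all 5 lines, where 19.6% of all genes were, and 1 (OSM) was below all 5. The median of N-R1 minus the mean of the 5 lines was 0.68 over the list and -0.03 over all genes. The same 9 were above all 5 lines under quantile normalization, the shift to one median and the removal of the technical axis, where 1, 1 and 2 were below and the medians were 0.62, 0.76 and 0.57. CISH was at 8.73 (other lines 6.33 to 7.80), SOCS2 at 7.78 (6.19 to 7.28), CCND2, a cyclin of the G1 phase, at 8.77 (5.51 to 8.05), and PIM2 at 9.65 (7.44 to 9.37). N-R2 was the lowest line for CISH, SOCS2 and CCND2 and the second lowest for PIM2. None of the 14 was called between N-R1 and naive, where the list median was 0.43.

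**Figure D4:**
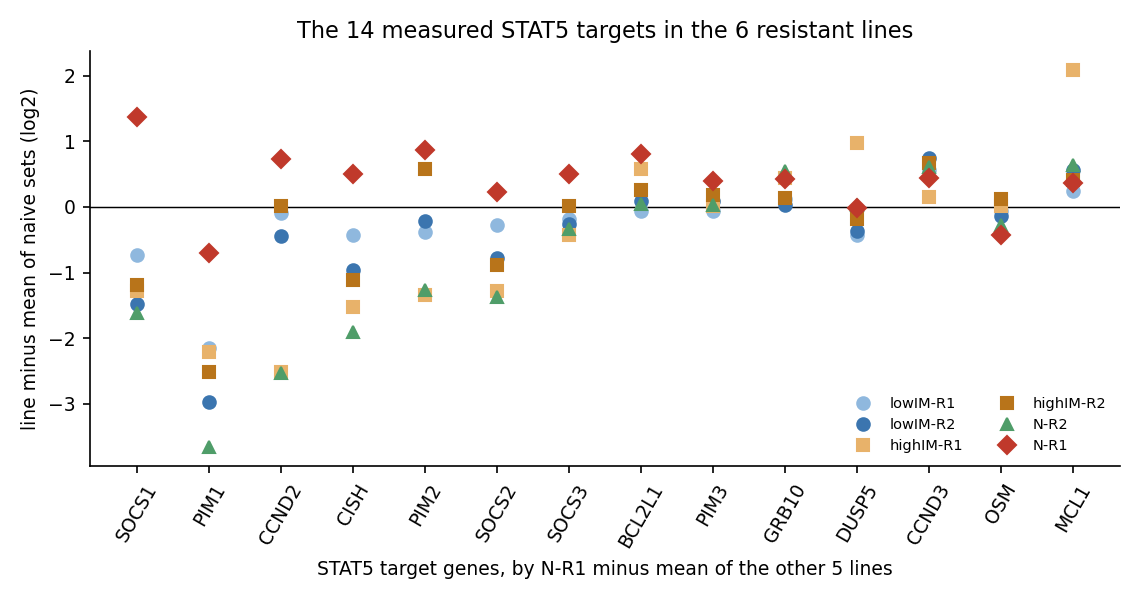
The 14 measured STAT5 targets (horizontal axis) are drawn as each resistant line minus the mean of the naive sets (log2, vertical axis). N-R1 (red diamonds) is the top point in 9 of the 14 genes, and N-R2 (green triangles) is among the lowest for SOCS1, PIM1, CCND2 and CISH.

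In the BCL2 family 8 of 17 measured genes were above all 5 lines, where 19.6% of all genes were, and 1 was below (list median 0.29), with BCL2 the only one to meet the rule. BAX, which opens the mitochondrial outer membrane, was called higher than naive at 7.70 against 6.75. BCL2L11 (BIM), an inhibitor of BCL2, was at 8.33 against 6.68 to 7.78 in the other lines. Both BAX and BCL2L11 act towards cell death, against BCL2. Among heat shock proteins 9 of 17 were above all 5 lines, where 19.6% of all genes were, and none met the rule. The number was 6 of 17 after quantile normalization (19.0% of all genes) and 6 of 17 with the technical axis taken out (15.6%).

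Growth factor and receptor genes formed the next group. KIT, a receptor tyrosine kinase that both drugs inhibit, read 9.23, 9.31, 9.22 and 9.21 on the N-R1 arrays. The naive sets were at 8.44 and 8.87, highIM-R1 at 7.54, and the other 4 lines at 5.05 to 5.60. N-R1 minus naive was 0.59 ± 0.88 (SE, adjusted p = 0.641 in limma). The other 5 lines differed from naive by -2.84 ± 0.60 (adjusted p = 0.045). Of 9 measured target kinases KIT was the 1 that met the rule, and BCR and MAPK11 were the others above all 5 lines, 3 of 9 where 19.6% of all genes were.

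IGF1, a growth factor, read 9.71, 9.81, 9.62 and 9.62 in N-R1 against 5.64 to 6.47 in the other lines, with naive S at 8.07 and naive K at 7.17 in between. EPHB4, a receptor for ephrin B2, was at 9.38 against 7.38 to 8.10, and RXFP1, the relaxin receptor, at 7.53 against 4.24 to 4.64. CD24, a surface sialoglycoprotein of immature cells, was at 10.53 in N-R1, 9.64 and 9.73 in the naive sets and 8.68 in highIM-R1, and at 5.70 to 7.03 in the other 4 lines. CD24 and KIT thus shared a pattern in which N-R1 lay nearest to naive cells and highIM-R1 second. ICAM1, an adhesion receptor, was at 9.06 against 5.88 to 7.84, and THBS1 (thrombospondin), stored in platelets, at 9.50 against 6.83 to 8.22. CD24, ICAM1 and THBS1 were each the only gene of a list to meet the rule. On the megakaryocyte and platelet list (THBS1) 3 of 19 were above all 5 lines and 6 below. On the cell adhesion list (ICAM1) these were 1 and 4 of 23, and on the lymphoid list (CD24) 2 and 6 of 17. Of all genes 19.6% were above and 25.6% below. In the same order of lists, quantile normalization gave 3 and 4, 2 and 2, and 3 and 4 (19.0% and 19.6% of all genes). The shift to one median gave 3 and 3, 3 and 2, and 4 and 4 (27.8% and 15.8%). Removal of the technical axis gave 4 and 5, 4 and 3, and 3 and 4 (15.6% and 21.8%).

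Transcription factors formed another group. SNAI2, a zinc finger repressor of the epithelial to mesenchymal transition, read 11.52, 11.38, 11.43 and 11.57 in N-R1. It was 9.04 in lowIM-R1 and 6.01 to 6.43 in the other 4 lines, against 6.36 and 6.59 in naive cells. N-R1 minus naive was 4.997 ± 1.11 (SE, adjusted p = 0.0502 in limma), which did not pass. SNAI2 was the only one of 11 measured genes of the mesenchymal transition list to meet the rule, and 3 of 11 were above all 5 lines, where 19.6% of all genes were, and 1 was below. BCL11A, a repressor of fetal globin, was at 6.95 against 5.18 to 5.42, and 1.503 ± 0.16 (SE) above naive (adjusted p = 0.0077 in limma). RUNX2, the bone lineage factor, was at 7.82 against 5.58 to 6.52, and was chosen after its value was seen. It was 1.63 ± 0.37 (SE) above naive, which did not pass (adjusted p = 0.0515 in limma).

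Secretory, muscle and neural genes included the largest difference of all measured genes between N-R1 and naive cells, 6.20 ± 1.31 (SE) in SCG3. SCG3 (secretogranin III), a protein of dense-core vesicles, read 10.45, 10.63, 10.73 and 10.83 in N-R1. HighIM-R2 was also high at 7.87, and the other 4 lines (4.29 to 5.21) and naive sets (4.51 and 4.41) were low. TMOD2, an actin capping protein of neurons, repeated this order with 9.13 in N-R1, 7.90 in highIM-R2 and 5.01 to 5.73 in the other 4 lines. DMXL2, a vesicle protein, was at 10.54 against 7.17 to 9.19. These 3 genes and MIR4712 lie within 10 measured genes of chromosome 15, and all 4 were higher. PLN (phospholamban), an inhibitor of the calcium pump of muscle, was at 9.48 against 4.52 to 6.18, with naive at 4.79 and 4.65. NMU (neuromedin U), a neuropeptide made by naive K-562, was at 8.91 in N-R1, 6.23 to 7.42 in the other lines and 10.83 in both naive sets, so N-R1 stood between. NMU was the only gene of the axon guidance and neural list to meet the rule. Of 36 measured genes of that list 3 were above all 5 lines (19.6% of all genes) and 15 below (25.6%). With quantile normalization 8 were above (19.0% of all genes) and 12 below (19.6%). The shift to one median gave 7 (27.8%) and 12 (15.8%), and removal of the technical axis 5 (15.6%) and 9 (21.8%). The list median of N-R1 minus the mean of the 5 lines was -0.18. SORCS1, a sorting receptor, was at 7.34, near naive (6.92 and 7.23) and above the other lines (5.47 to 5.79).

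The interferon list met the rule through the chromosome 4 genes HERC5 and HERC6. Of its 29 measured genes 9 were above all 5 lines, where 19.6% of all genes were, and 6 were below, where 25.6% were (median 0.13). The induced genes IFIT1 (4.45 in N-R1, 4.48 in naive cells) and ISG15 (7.43 and 7.38) lay inside the range of the other lines. Over the 41 lists, 39 had at least 5 measured genes and 15 had a gene that met the rule. These were 16 different genes of 649 measured.

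Among the lower genes, EPB41L4A, a band 4.1 protein of the cell cortex, had the largest gap. It read 4.36, 4.43, 5.23 and 5.36 in N-R1 against 6.91 to 8.22 in the other lines, with naive S at 5.11 and naive K at 5.90. The other 5 lines were 2.22 ± 0.36 (SE) above naive (adjusted p = 0.028 in limma). Others were lower than in all 7 other sets: ANXA3, an annexin, was at 5.23 against 6.83 to 9.18, PLTP, which moves phospholipids between lipoproteins, at 6.95 against 8.55 to 10.40, and MCUB, the blocking subunit of the mitochondrial calcium uniporter, at 5.63 against 7.199 to 9.28. MEIOB, a meiosis protein, was at 4.94 against 6.12 to 8.22 and 8.13 and 7.92 in naive cells. GAGE12C, a cancer-testis antigen, was at 8.12 against 9.43 to 10.43, and its gap of -1.31 was -0.87 with its features averaged. GAGE12C and GAGE12H are near-identical copies whose signals the array may share.

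A set of 6 lower genes stood at the naive level. The pseudogene transcript AQP7P1 was at 6.39 in N-R1 and 6.11 and 6.62 in the naive sets, against 7.79 to 8.38 in the other lines. LOC100133920 (7.61) and LOC286297 (7.82) were near naive levels of 7.90 and 8.00 and below the 8.95 to 10.07 and 9.14 to 9.93 of the other lines. UACA (6.21), SIRPA (6.64), the receptor for CD47, and TSPAN5 (4.90) completed this set. The gap of SIRPA was -1.03, and -0.63 with its features averaged. The other 5 lines were called above naive for AQP7P1, LOC100133920, LOC286297, SIRPA and UACA (adjusted p of 0.021 to 0.045 in limma) and not for TSPAN5 (adjusted p = 0.077).

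Of the 111 genes 91 were protein-coding (82.0%, against 80.1% of all measured genes), 8 were long non-coding RNAs, 6 pseudogenes and 4 miRNA genes. The last 2 were SCARNA17 and TERC, the RNA template of telomerase, at 9.002 in N-R1, 7.61 in naive S and 8.97 in naive K. The 4 miRNA genes were MIR3144, MIR4712 and MIRLET7F1, which were higher, and MIR889, which was lower. Their features do not separate the arms of a hairpin, and MIR889 was at 3.56 against 4.82 to 6.03 in the other lines. MIR4712 was at 5.09 against 2.81 to 3.95, a gap of 1.15 that was 0.39 with the technical axis taken out. In N-R1 both MIR889 and MIR4712 lay below the medians of its arrays (5.85 to 5.91), so their signals were weak. The mature sequences of these 2 are printed because each gene lies in a stretch where neighbours were shifted the same way. Capitals mark the seed, bases 2 to 8, and the 8 arms of the 4 genes have 8 different seeds (RefSeq, GRCh38.p14).
hsa-miR-889-5p: aAUGGCUGuccguaguaugguc
hsa-miR-889-3p: uUAAUAUCggacaaccauugu
hsa-miR-4712-5p: uCCAGUACaggucucucauuuc
hsa-miR-4712-3p: aAUGAGAGaccuguacuguau
MIR889 belongs to a large cluster of miRNA genes on chromosome 14. The 41 measured genes from WDR25 to MIR544A there had a median of -0.41 against the mean of the 5 lines. Of them 27 were below all 5, where 25.6% of all genes were, and none was above, where 19.6% were. With every array shifted to the same median 15.8% of all genes were below, and this stretch was not recounted.

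Running medians over 41 measured genes showed where N-R1 was shifted over longer stretches without meeting the rule. Only 180 of 13951 windows (1.29%) passed 0.3 log2 units in either direction, in 6 stretches. The 2 on chromosome 7 (0.32 and 0.41), the one on chromosome 15 from EHD4 to AFG2B (0.50) and the one on chromosome 19 (0.32) were higher. On chromosome 15 this was 26 of 41 genes above all 5, where 19.6% of all genes were. Those on chromosomes 14 and 22 were lower.

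The lowest stretch lay on chromosome 22. The peak window of the running medians ran from DGCR5 to YDJC, and 34 of its 41 genes were below all 5. All 47 measured genes from DGCR5 to YPEL1 were lower in N-R1 than the mean of the 5 lines (median -0.69). Of the 47, 40 were below all 5, where 25.6% of all genes were. With quantile normalization 40 were below (19.6% of all genes). The shift to one median gave 32 (15.8%) and removal of the technical axis 36 (21.8%). The ends of this stretch and of the next were set after the values were seen, so counts within them are description only. Against naive cells the median of the 47 genes was -0.43 in N-R1, -0.04 in N-R2 and 0.60 in lowIM-R2. CRKL, an adapter phosphorylated by the fusion kinase, was at 9.82 in N-R1, 10.36 and 10.40 in naive cells and 10.41 to 11.497 in the other lines. The next 10 measured genes, from TOP3B to FBXW4P1, went the other way. Of these 9 were higher (median 0.74) and 8 were above all 5 lines, where 19.6% of all genes were. The median of the 10 above naive was 0.84.

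BCR lies in that second stretch. It read 8.65, 8.86, 8.91 and 8.97 on the N-R1 arrays, against line means of 8.12 (lowIM-R1), 8.32 (lowIM-R2), 7.82 (highIM-R1), 8.20 (highIM-R2) and 7.67 (N-R2), and naive sets at 7.84 and 7.90. N-R1 was the highest of the 8 sets and N-R2 the lowest. The gap was 0.53, so BCR did not meet the rule, and N-R1 minus naive was 0.97 ± 0.27 (SE, adjusted p = 0.070 in limma). PRAME, a tumour antigen, was at 12.11 against 10.40 to 11.46, and ZNF280B, a zinc finger gene, at 11.62 against 9.91 to 10.74. Genes of the 2 stretches were picked out after their values were seen, except BCR.

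**Figure D5:**
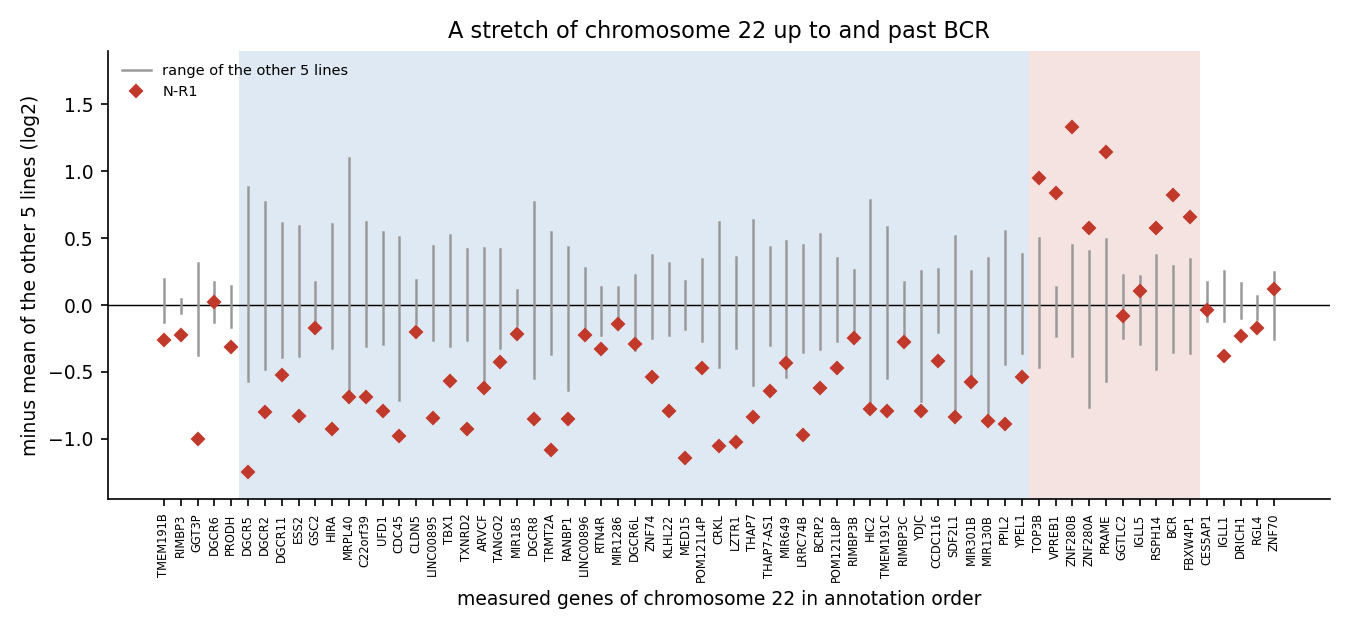
N-R1 minus the mean of the other 5 lines (log2, vertical axis, red diamonds) is drawn for measured genes of chromosome 22 in annotation order (horizontal axis), with grey bars for the range of the 5 lines. The 47 genes shaded blue are all below 0, and 9 of the 10 shaded red, which include BCR, are above.

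As a description of the values that chose the genes, N-R2 was the nearest of the 5 lines to N-R1 in 15 of the 111 genes, lowIM-R1 in 34, highIM-R1 in 27, highIM-R2 in 23 and lowIM-R2 in 12. Both lines carry the same label and dose, and with 1 line beside 1 line, the difference between them has technical spread only.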

How the data were processed

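K-562 RNA from 8 sets was measured on 32 whole-transcript GeneChip arrays, 4 technical arrays a set. The authors deposited summarised intensities that read as log2 values (1.24 to 14.2, base inferred). Transcriptome Analysis Console 4.0 was used per the submitters' processing notes, with a normalization not given in the sources used here and array medians from 5.85 to 6.11. Precision is limited by the number of lines and naive sets, as the arrays of a set are technical repeats.

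Of 53617 features 16098 carried exactly 1 symbol and 37519 did not. The feature with the highest mean stood for a gene, leaving 14884 genes. The annotation of GRCh38.p14 gave only names, gene order, promoters and miRNAs. Means of the 4 arrays gave 8 values a gene, to which limma 3.58.1 (R 4.3.3) was fitted with groups naive (2), other lines (5) and N-R1 (1), 5 residual degrees of freedom, Benjamini-Hochberg adjustment and a threshold of 0.05. Both the rule and the fit were run on simulated data with planted changes, which checks the code and not the results. The genes, lists and tests were chosen with earlier results of these data known.

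Named genes were the 12 largest gaps in each direction, the 6 largest with naive position over 0.75, the largest gap in each list, up to 4 in runs of at least 3 within 10 measured genes, the 3 on each side of the limit, and BCR. The chromosome 4 run is given in full. Other genes are list members set beside these or were chosen after their values were seen. Alternatives changed the filter, normalization, feature rule, limit, lines, arrays and the form of the fit. Same-numbered arrays of different sets did not deviate together (mean residual correlation -0.0013 over 112 pairs), so array numbers do not pair samples. P-values measure the spread between sets, which are single RNA sources.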

Additional observations from a re-analysis of the deposited data

Results flagged for a closer look

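Within N-R1, 1 of the 4 arrays stood away from the other 3 by Dixon's criterion in 3 of 59 named genes. DMP1 read 7.67 on 1 array and 8.60 to 8.79 on the others, PLN 9.70 against 9.39 to 9.44, and TIPARP 9.23 against 9.08 to 9.10. On the technical axis, 1 array of lowIM-R1 scored -15.2 against 10.8 to 15.5. These are 4 of 67 groups of 4 arrays examined, and chance marks about 1 in 20.

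In 13 of the 59 named genes all 4 N-R1 arrays lay on one side of all 8 naive arrays and all 4 N-R2 arrays on the other. This difference between the 2 nilotinib lines was not tested. Most of the 59 were named for their N-R1 levels, and the same count over all genes was not made. Of all genes 26.9% had the 4 N-R1 arrays above all 8 naive arrays and 12% below. For IBSP the highest N-R2 array (4.711) was just under the lowest naive array (4.717). N-R1 was above naive and N-R2 below it for IBSP (3.62 in N-R1 and -0.48 in N-R2), RXFP1 (2.46 and -0.83), DMXL2 (2.14 and -1.22), IGF1 (2.07 and -1.92) and SOCS1 (1.37 and -1.61). The same held for ADAM19 (1.15 and -0.88), HS3ST3B1 (0.85 and -1.86), CD24 (0.84 and -2.66), TIPARP (0.75 and -0.27) and AHR (0.73 and -3.33). N-R1 was below naive and N-R2 above it for ANXA3 (-1.90 and 1.16), MYO3B (-1.15 and 2.47) and MCUB (-1.002 and 0.64).

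Among the 37519 features not assigned to exactly 1 gene symbol, 172 (0.458%) met the same rule, 137 higher and 35 lower. In 125 of them N-R1 was also beyond both naive sets by 1 log2 unit.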

How the results depend on the processing

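The cause of the changes below was not tested. A filter or the use of every feature changes the number examined. A lower limit or fewer of the 5 lines can only keep or add genes, and a higher limit can only keep or remove them. The direction of those changes was thus fixed in advance. Against 111 genes, 65 (44 higher) met the rule without the dimmest 40% of genes, 37 of them apart from naive. Over every array feature 290 did (229 higher, 61 lower, 227 apart from naive, 20 at or beyond). A limit of 0.5 gave 422 (327 and 95, 347 apart, 27 at or beyond) and a limit of 2 gave 29 (27 and 2, 22 apart, 1 at or beyond). The shift to one median gave 15 lower genes. Leaving out 1 N-R1 array gave 104 to 111 genes (83 to 90 higher, 21 to 24 lower, 74 to 83 apart from naive, 10 or 11 at or beyond). Leaving out 1 of the 5 lines gave 116 to 149 (88 to 102 higher, 27 to 47 lower, 85 to 100 apart, 11 to 19 at or beyond), the 47 and 19 without highIM-R1. No gap of the 59 named genes changed sign; in 9 of them (GAGE12C, HERC5, HS3ST3B1, MIR4712, MYO3B, SIRPA, TIPARP, UACA and ZNF438) the gap was under the limit in at least 1 alternative.

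Calls of N-R1 against naive (588) were 381 without dim genes, 232 with quantile normalization, 1790 with one median (1708 higher), 46 without the technical axis, 373 over every feature, and 58 with each resistance its own group. For the other 5 lines (615) they were 396 with quantile normalization, 1369 with one median, 38 without the axis, 355 over every feature and 120 with each resistance its own group. With the set as a random block 3296 and 2960 were called. With technical spread and no replicate block 10072 and 9005 were called, and with the array number as a replicate block 10060 and 8995; the block changed neither count by 1.5 times. Leaving out any 1 of the 7 sets other than N-R1 moved both counts by over 1.5 times, to 16 (without naive K) to 1556 (without highIM-R1) and to 0 to 1816 (without highIM-R1), the 0 without naive S, where 2799 genes had an unadjusted p under 0.05 in limma. One median moved the median of N-R1 minus naive from -0.03 to 0.16.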

Other observations

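In 5 of the 111 genes another feature of the same gene was measured, 10 features in all. Of these 8 had the same sign and 4 passed 1 log2 unit. The 3 other features of STARD9 had gaps of 1.22, 1.59 and 1.64, whereas that of HIVEP2 (gap 1.28 on its main feature) was inside the range of the lines, with N-R1 differing from their mean by -0.06. The 3 other features of GAGE12C had 1 common value, a difference of -1.75 from the mean of the 5 lines.

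Other higher genes, chosen after their values were seen, were the long non-coding RNAs LINC01822 (gap 2.79) and LINC01122 (2.60), GPC3 (2.17), a heparan sulfate proteoglycan, and DMTN (1.28), dematin of the red cell membrane. By chromosome, the genes were 9 of 465 measured on chromosome 15 (1.94%) and 5 of 232 on chromosome 18 (2.16%), against 0.746% of all, and there were none among 817 on chromosome 11.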
